A study of Solanum lycopersicum with 6 samples.

Results

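The cyclin and cyclin-dependent kinase (CDK) genes on this tomato array numbered 9, of 803 genes that carried a symbol. They were taken by name alone, as the probe sets whose gene symbol in the platform annotation begins with CDK and a letter or with Cyc, one of the letters A, B or D, and a digit. These were the kinase genes CDKA1, CDKB1, CDKB2 and CDKC and the cyclin genes CycA1, CycA2, CycA3, CycB2 and CYCD3. Each had 1 probe set among the 10101 tested, and all 9 probe sets carry the plain suffix with which the array maker marks a design for a single transcript. All 9 gene identifiers were found in the RefSeq gene table.

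A CDK is active only when bound to a cyclin, and the cyclin partner sets when in the cell cycle the kinase works. In plants, A-type CDKs act throughout the cycle, the plant-specific B-type CDKs act from the end of DNA replication into mitosis, and C-type CDKs act with another cyclin class on transcription rather than on division. D-type cyclins drive the entry into DNA replication, A-type cyclins act from replication into mitosis, and B-type cyclins act in mitosis. The flesh of a tomato fruit divides soon after flowering and then grows by cell expansion with repeated DNA replication without division, so a full-sized green fruit is past its main phase of division.

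RNA came from mature green fruit of the dwarf cultivar MicroTom, from 3 samples of plants grown under drought conditions and 3 samples of plants grown under normal conditions (control). Drought plants received liquid fertilizer diluted 500 times only once a week, and control plants received the same dilution with no weekly limit stated, so water and nutrient supply changed together. The greenhouse was held at 25 °C during the day and at 20 °C in evenings, and fruits of both groups were picked 30 to 40 days after flowering. The labels name no separate plants and do not say how many fruits a sample pooled, so the p-values speak for the variation among these 6 samples, part or all of which could be technical.

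The deposited values are log2 levels that hardly vary between arrays for most probe sets. Across 60 bacterial and phage control probe sets, which match no tomato gene, the median range over the 6 arrays was 1.18e-05 and the widest was 0.000467 on the log2 scale. Control replicate 3 lay closer to the drought arrays than to its own group, with a root mean square distance of 0.0690 to the drought mean and of 0.139 to the mean of the other controls. In limma, 77 of the 10101 probe sets passed an adjusted p of 0.05, 53 higher and 24 lower in drought. Without control replicate 3 there were 546, and without any one of the other 5 arrays there were 0 to 7. With all arrays brought to a common median (median centring), 9406 passed, 214 higher and 9192 lower. The tissue label was checked with 5 genes chosen without a fixed rule. The fruit transcript 2A11 was among the highest values of every array at 14.133 and the fruit MADS-box gene TAGL1 stood at the 88.4th to 88.5th percentile, whereas the fruit transcript TPRP-F1 ran from the 33.3rd to the 78.2nd percentile across arrays. Of the ripening genes, E8 stood at the 34.6th to 38.8th percentile and the polygalacturonase gene PG2 at about the 6.5th. Bulk tissue was measured, so a different number of dividing cells and a different amount of RNA per cell cannot be told apart.

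None of the 9 genes reached the threshold. The 2 with the smallest p-values were the mitotic kinase gene CDKB2 and the A-type cyclin gene CycA1, both with every drought array above every control array. By limma, the count of members at an adjusted p of 0.05 was 0 of 9, where the share of all tested probe sets was 0.762%. At an unadjusted p of 0.05 it was 2 of 9, against 25.0% of all tested probe sets. The other 7 genes had differences of 0.0035 or less in size.

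CDKB2 encodes a B-type kinase whose transcript marks cells about to divide. It had values of 7.068, 7.083 and 7.075 in drought fruits, against 7.032, 7.045 and 7.047 in control fruits, on the log2 scale. The groups did not overlap, and the lowest drought value lay further above the highest control value than the group SDs. The means were 7.075 ± 0.0074 in drought and 7.042 ± 0.0081 in control (SD, n = 3 each). The difference was 0.034 ± 0.0060 (SE, limma adjusted p = 0.0722), with a 95% interval of 0.017 to 0.050, so it corresponds to a level 2.36% higher in drought on the deposited scale. It kept its sign under quantile scaling (0.029) and under median centring (0.028). CDKB2 had the 538th smallest p of the 10101 probe sets.

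CDKB1, the other B-type kinase gene, did not share this size of difference. Its values were 7.2117, 7.2119 and 7.2117 in drought fruits, against 7.2115, 7.2117 and 7.2117 in control fruits. The groups overlapped, and all 6 values lay within 0.00039, less than the widest range of a control probe set. The difference was 0.00014 ± 8.8e-05 (SE, limma adjusted p = 0.402), with 7.2e-05 without drought replicate 2 and 8.2e-05 without control replicate 1, and it was below 0 under quantile scaling and under median centring. No test was made of the difference between CDKB1 and CDKB2.

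The A-type kinase gene CDKA1, whose kinase serves the whole cycle, was nearly constant. Its 6 values spanned 0.00014 around 9.238, with a mean lower in drought by all 3 scalings. The difference was -7.8e-05 ± 3.4e-05 (SE, limma adjusted p = 0.253), and control replicate 1 lay among the drought arrays. CDKC, the C-type kinase gene of transcription, spanned 1.6e-05 around 8.647, with a difference of 9.2e-06 ± 5.1e-06 (SE, limma adjusted p = 0.348) that was 1.4e-05 without drought replicate 1 and below 0 under quantile scaling and under median centring. The ranges of CDKA1, CDKB1 and CDKC all lay within that of the most variable control probe set.

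**Figure D1:**
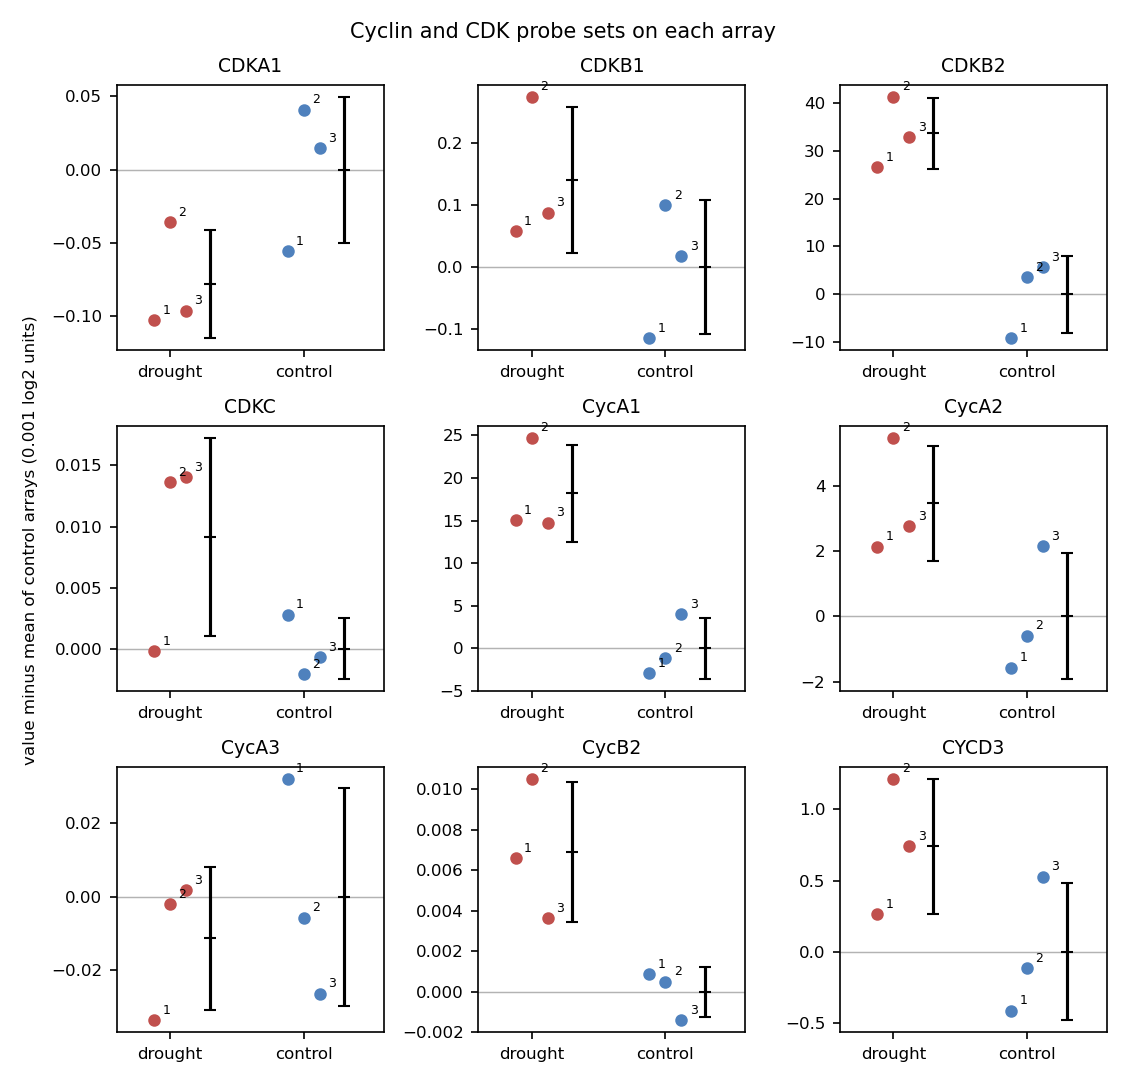
Each panel plots 1 gene on the 3 drought arrays (red) and the 3 control arrays (blue), numbered by replicate, as the value minus the mean of the control arrays in units of 0.001 on the log2 scale, with a bar for the mean ± SD of each group. The vertical scales differ between panels: the groups of CDKB2 and CycA1 stand apart by 0.034 and 0.018 log2 units, whereas CDKC and CycB2 vary by less than 0.00002.

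Among the cyclins, CycA1 had the largest difference. CycA1 had values of 6.581, 6.591 and 6.581 in drought fruits, against 6.564, 6.565 and 6.570 in control fruits. The groups did not overlap, drought replicate 2 was the highest array and control replicate 3 was the highest of its group. The means were 6.585 ± 0.0057 in drought and 6.566 ± 0.0036 in control (SD, n = 3 each). The difference was 0.018 ± 0.0037 (SE, limma adjusted p = 0.0867), with a 95% interval of 0.0082 to 0.028, or 1.27% on the deposited scale. It was also above 0 under quantile scaling (0.015) and under median centring (0.013). CycA1 was dim, under the 25th percentile on all 6 arrays (6.63 to 6.64).

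CycA2, a second A-type cyclin gene, had values of 6.4232, 6.4265 and 6.4238 in drought fruits, against 6.4195, 6.4204 and 6.4232 in control fruits. The groups met at 1 point, since control replicate 3 lay just above drought replicate 1. The difference was 0.0035 ± 0.0014 (SE, limma adjusted p = 0.236), above 0 under quantile scaling (0.0029) and below 0 under median centring (-0.0021). Without control replicate 3 the CycA2 difference was 0.0045 with an adjusted p of 0.137, and over all its alternatives the adjusted p ran from 0.137 to 0.470. CycA2 was likewise under the 25th percentile on all 6 arrays.

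CycA3, the remaining A-type cyclin gene, showed no separation. Its values lay within 6.6e-05 of each other around 9.065, and the drought and control arrays were interleaved. The difference was -1.1e-05 ± 2.0e-05 (SE, limma adjusted p = 0.788), and single arrays left out gave -2.5e-05 to 4.7e-06, the highest without control replicate 1. The 3 A-type cyclin genes thus had differences of 0.018, 0.0035 and -1.1e-05, none past the threshold, and no test was made between them.

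The D-type cyclin gene CYCD3 had values of 8.1151, 8.1160 and 8.1155 in drought fruits, against 8.1144, 8.1147 and 8.1153 in control fruits. Control replicate 3 lay above drought replicate 1, so the groups overlapped. The difference was 0.00074 ± 0.00037 (SE, limma adjusted p = 0.306), and it was below 0 under quantile scaling (-0.0049) and under median centring (-0.0048). The mitotic B-type cyclin gene CycB2 had all drought arrays above all control arrays, yet its 6 values spanned only 1.2e-05 around 6.252. Its difference of 6.9e-06 ± 2.9e-06 (SE, limma adjusted p = 0.235) was below 0 under quantile scaling and under median centring, and it too was under the 25th percentile on all 6 arrays.

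Seen as a group, 7 of the 9 genes had higher means in drought, against 49.2% of all tested probe sets. With quantile scaling 3 of the 9 did, against 926 of the 10101 tested probe sets. With median centring 2 of the 9 did, against 332 of the 10101. The median difference of the members was 0.00014, against -1.1e-07 over all tested probe sets, and it was 7.2e-05 without drought replicate 2 and 8.2e-05 without control replicate 1. Under quantile scaling the median of the members was -0.0014, against -0.0035 over all, and under median centring it was -0.0054, against -0.0055 over all. Groups did not overlap with drought higher in 3 members (CDKB2, CycA1 and CycB2), against 20.5% of all tested probe sets, and with drought lower in 0 members, against 14.3%. Under quantile scaling these counts were 2 higher and 0 lower, against 3.29% and 34.2% of all tested probe sets, and under median centring 2 higher and 6 lower, against 2.12% and 91.7%. A difference of at least 0.01 with drought higher was found in 2 members, against 2.64% of all tested probe sets. CDKB2 stood at the 96.8th and CycA1 at the 95.3rd percentile of absolute difference, and CycB2 at the 26.6th. The differences of 5 members (CDKA1, CDKB1, CDKC, CycA3 and CycB2) were smaller than the widest range of a control probe set. A range over 6 arrays is a wider measure than a difference between group means. The largest such difference of a control probe set was 0.000121 in size. By that measure CDKA1, CDKC, CycA3 and CycB2 lay below the controls' largest, and CDKB1 (0.00014) lay above it.

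**Figure D2:**
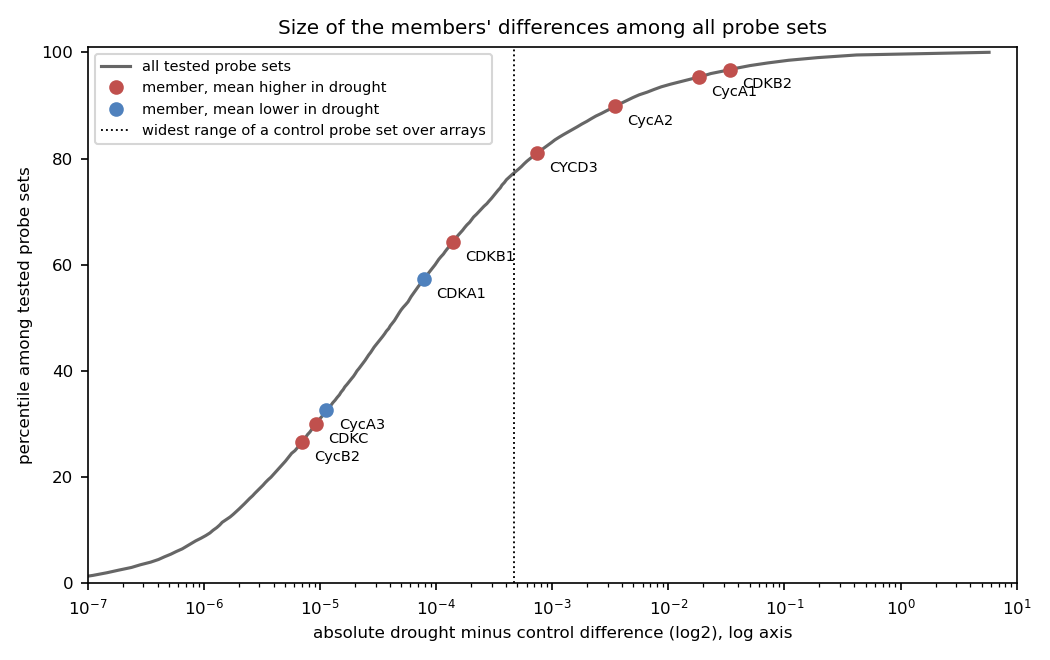
The line gives the percentile of each absolute difference between drought and control (log2, logarithmic axis) among all tested probe sets, and the points are the 9 members, red where the mean was higher in drought and blue where it was lower. CDKB2, CycA1, CycA2 and CYCD3 lie right of the dotted line at 0.000467, the widest range of a control probe set over the arrays, and the other 5 lie left of it. The largest difference between group means of a control probe set was smaller, at 0.000121, and CDKB1 lies above that value.

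The scaling of the arrays set the direction of most members. Array medians were 7.9048 to 7.9072 in drought, against 7.8974 to 7.9021 in control, a difference in the means of 0.0055. Centring took this amount from every probe set and moved the median of all differences to -0.0055, so the 6 members with differences under 0.001 in size were then called lower in drought with adjusted p-values of 0.0201 to 0.0231. So were 9192 of the 10101 tested probe sets. Under the same centring CDKB2 and CycA1 were called higher (adjusted p = 0.0201 each), as were 214 of the 10101, and CycA2 was not called (0.274). The range of the adjusted p over all alternatives was 0.0201 to 0.238 for CDKB2 and 0.0201 to 0.247 for CycA1. Quantile scaling gave 0 calls among the 9 and 0 among all tested probe sets.

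**Figure D3:**
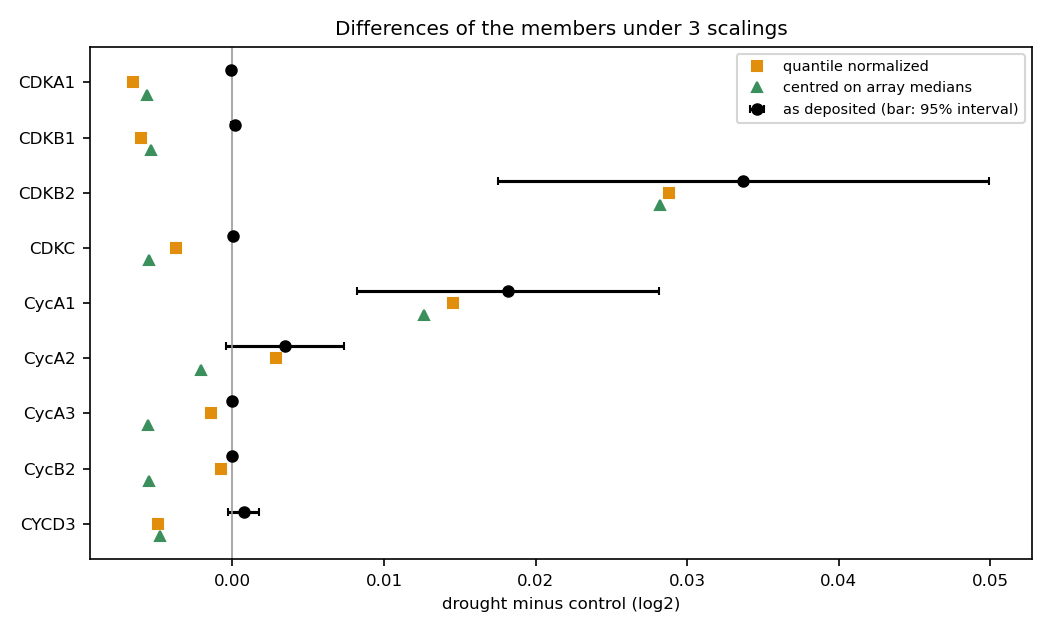
Differences between drought and control (log2) are plotted for the 9 members as deposited (circles, with the 95% interval from limma), under quantile scaling (squares) and with arrays brought to a common median (triangles). CDKB2 and CycA1 stay right of 0 in all 3, CycA2 falls to -0.0021 after centring, and the other 6 lie left of 0 in both rescaled versions.

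The same arrays were the extremes for most, not all, of the members. Drought replicate 2 was the highest array for 6 of the 9 genes (CDKB1, CDKB2, CycA1, CycA2, CycB2 and CYCD3), against 15.4% of all tested probe sets. Control replicate 1 was the lowest for 5 of them (all but CycB2), against 22.5% of all tested probe sets. CDKA1, CycA3 and CDKC had other extremes, with control replicate 2, control replicate 1 and drought replicate 3 highest. Quantile scaling gave 3 and 2 for these counts (3.23% and 5.09% of all tested probe sets), and median centring 2 and 1 (1.72% and 1.74%). The 15 pairs among these 6 genes, which were grouped after their values were seen, had Pearson's r of 0.64 to 0.98 over the 6 arrays with a median of 0.84. Over all 36 pairs of members the median was 0.65, with a lowest value of -0.50, and over all pairs of probe sets with a symbol it was 0.02. All these values come from the same 6 arrays and include the difference between the groups, so they describe these arrays only.

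CDKB2 and CycA1 had Pearson's r of 0.97 with each other. Among 171 other named genes with a range of at least 0.01, the patterns most like CDKB2 over the 6 arrays were those of the galactosidase gene TBG7 (r = 0.994), the expansin gene exp18 (0.979) and XYL1 (0.978). Those most like CycA1 were LOC543646 (0.990), LOC543764 (0.982) and again XYL1 (0.977). Likeness of this kind was common, since 20 of the 171 genes had r over 0.9 with CDKB2 and 21 with CycA1. The scale differed widely: LOC543646 had values of 9.04, 10.56 and 8.94 in drought fruits, against 6.13, 6.19 and 7.77 in control fruits. Its difference was 2.82 ± 0.72 (SE, limma adjusted p = 0.117), against 0.018 for CycA1 with the same order of arrays. For exp18 the values were 8.644, 8.673 and 8.670 in drought fruits, against 8.527, 8.580 and 8.555 in control fruits, a difference of 0.11 ± 0.017 (SE, limma adjusted p = 0.0633).

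Other genes of the cell cycle and of fruit growth were found under 9 names, with 10 probe sets. By limma 0 of the 10 passed, against 0.762% of all tested probe sets. At an unadjusted p of 0.05 it was 2 of 10, against 25.0%. Of these 10 probe sets 5 had higher means in drought, against 49.2% of all tested probe sets. Under quantile scaling 0 of the 10 did, against 926 of the 10101 tested, and under median centring 0 did, against 332. Groups did not overlap in 5 of them, 3 higher and 2 lower in drought, against 20.5% and 14.3% of all tested probe sets. Their median difference was 1.4e-06. Over all tested probe sets the median was -0.0035 under quantile scaling and -0.0055 under median centring. A difference below 0 under these scalings can thus lie above that of the median probe set.

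Among the regulators of CDKs, krp1 encodes an inhibitor that binds CDK complexes. It had values of 7.2735, 7.2738 and 7.2724 in drought fruits, against 7.2686, 7.2676 and 7.2706 in control fruits. The groups did not overlap, and control replicate 3 was again the control nearest to drought. The difference was 0.0043 ± 0.00093 (SE, limma adjusted p = 0.0954), it passed only without control replicate 3 among the single arrays left out (0.0051, adjusted p = 0.0494, over a range of 0.0494 to 0.505 for its alternatives), and it was below 0 under quantile scaling (-0.0024) and under median centring (-0.0013). The second inhibitor gene krp2 had overlapping groups and a difference of 4.7e-05 (adjusted p = 0.751), which ran from 1.8e-06 without control replicate 1 to 0.00011 without control replicate 2. The second A-type kinase gene cdc2A-2 spanned 9.0e-06 over the arrays, with an adjusted p of 0.668 and a difference of 1.4e-06 to 5.6e-06 when single arrays were left out, the lowest without drought replicate 3 and the highest without control replicate 1. The krp2 and cdc2A-2 differences were also below 0 after both rescalings.

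PCNA, the sliding clamp of DNA replication, had values of 8.4608, 8.4625 and 8.4626 in drought fruits, against 8.4590, 8.4584 and 8.4597 in control fruits. These groups did not overlap either, and the gap was smaller than for CDKB2. The difference was 0.0030 ± 0.00066 (SE, limma adjusted p = 0.0988), below 0 under quantile scaling (-0.0012) and under median centring (-0.0026). The 2 probe sets of the linker histone name H1 differed by -7.2e-06 and -1.2e-05 (adjusted p = 0.243 and 0.686). The first of them carries a suffix for shared transcripts, and the second ran from -2.4e-05 without control replicate 2 to 1.4e-06 without control replicate 1. The tubulin gene TUB differed by 0.00030 ± 0.00016 (SE, adjusted p = 0.329), with 0.00014 without control replicate 1, and it was below 0 after both rescalings.

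Of the fruit growth genes, OVATE, a repressor that shapes the fruit, had a difference close in size to that of CDKB2, in the opposite direction. OVATE had values of 6.750, 6.745 and 6.748 in drought fruits, against 6.777, 6.810 and 6.755 in control fruits. The drought arrays lay together below all control arrays, and the control arrays were spread over 0.055. The difference was -0.033 ± 0.015 (SE, limma adjusted p = 0.279), and it ran from -0.046 without control replicate 3 to -0.018 without control replicate 2. It kept its sign under quantile scaling (-0.037, limma adjusted p = 0.17) and under median centring (-0.0385, limma adjusted p = 0.0306). Under that centring 9192 of the 10101 tested probe sets were called lower. WUS, a stem cell regulator gene, and the fruit MADS-box gene TAGL1 differed by -2.9e-07 and -3.4e-06 (adjusted p = 0.963 and 0.684). The WUS difference ran from -8.2e-07 (control replicate 2 left out) to 2.3e-07 (control replicate 1 left out), and that of TAGL1 was -2.8e-07 without drought replicate 2 and -5.9e-06 without drought replicate 3.

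**Figure D4:**
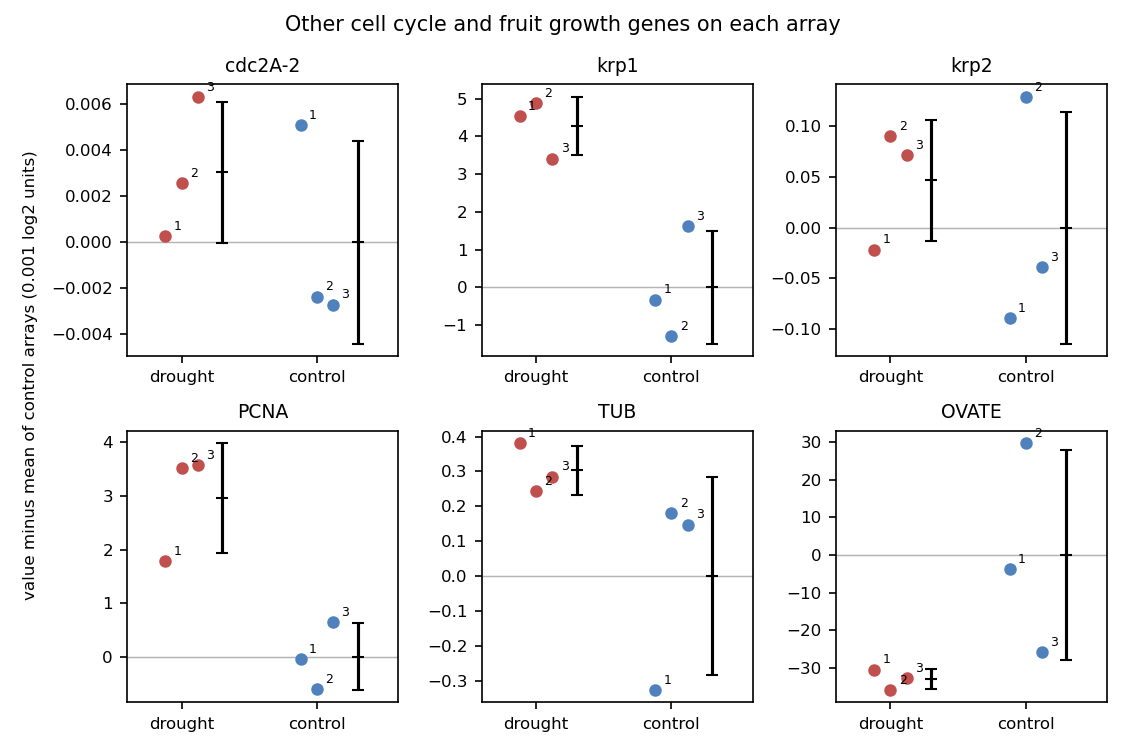
Each panel plots 1 gene on the 3 drought arrays (red) and the 3 control arrays (blue), numbered by replicate, as the value minus the mean of the control arrays in units of 0.001 on the log2 scale, with a bar for the mean ± SD of each group. In krp1, PCNA and TUB all drought arrays lie above all control arrays, by at most 0.0043 between the means, and in OVATE they lie below by 0.033.

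Markers of other tissues in the fruit differed little in summed level, though single genes differed more. The 3 epidermal lipid transfer protein genes (TSW12, LE16 and ltpg1) had a summed linear level of 4480.8 to 4500.8 in drought, against 4501.4 to 4516.2 in control, so the sums did not overlap. Of the 3 genes, 2 were lower in drought without overlap (14.3% of all tested probe sets were) and 0 were called. The 3 chlorophyll-binding protein genes of green tissue summed to 2569 to 2620 in drought, against 2586 to 2636 in control, with 0 called and 0 without overlap. For vascular tissue only 1 gene was found, the invertase gene Wiv-1, at 89.3 to 89.4 in drought, against 89.2 in control. Wiv-1 was dim, under the 25th percentile on all 6 arrays, so it says little about the amount of this tissue. The 8 expansin and xyloglucan endotransglucosylase genes of fruit expansion summed to 4181 to 4330 in drought, against 4214 to 4417 in control, with 2 higher and 1 lower without overlap (20.5% and 14.3% of all tested probe sets were) and 0 called. Among them XTH16 was higher in drought by 0.21 in its brightest probe set (limma adjusted p = 0.239). XTH3 was lower by 0.40, with overlapping groups (limma adjusted p = 0.403). XTH6, another gene of fruit expansion, was under the 25th percentile on all 6 arrays, and 0 seed marker genes were found by symbol. The part of these tissues in the values of CDKB2 and CycA1 was not tested.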

How the data were processed

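The labels describe 1-colour arrays hybridized with biotin-labelled cRNA made from 100 ng of total RNA. The deposited values were taken as log2 summaries per probe set, judged from their range; the authors' background correction, normalization and summary are not given in the sources used here. Samples were grouped by title, and all 6 columns were used. Of the table's probe sets, 108 manufacturer controls were not tested and 10101 were, in R 4.3.3 with limma 3.58.1 (lmFit, eBayes, two-sided, Benjamini-Hochberg over all tested probe sets, threshold 0.05), with no block and no filter. Precision is limited by 3 arrays per group. All 15 pairs of arrays differed by over 0.1 in at least 47 probe sets.

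The members and lists were chosen with earlier results of these data known. All members are named. The companion list was matched by symbol or synonym, with up to 3 genes per subgroup given values. Likeness took the 3 highest r per member with a range of at least 0.01. TPX2 and ANT1, homonyms in tomato, were left out. In a simulation of drought against control with 10101 probe sets, limma found 46 of 50 changes sized 0.01 on the log2 scale, 47 of 50 sized 0.1, 49 of 50 sized 1 and all 50 sized 2, with 10 false calls. These rates need not hold for probe sets that vary more between arrays than most. CDKB2 and CycA1 are such probe sets, at the 95.9th and 94.4th percentile of range over the arrays. In the data themselves 622 of the 10101 tested probe sets differed by at least 0.01 in size, and 77 probe sets were called. The simulated rates thus give no power for the members. CDKB2 and CycA1 differed by 0.034 and 0.018 as deposited and were not called. Alternatives were quantile normalization, centring, leaving out the dimmest 30% of probe sets, a replicate block, a trended robust prior, array weights, unmoderated variance, averaging probe sets of a gene, and leaving out each array in turn.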

Additional observations from a re-analysis of the deposited data

How the results depend on the processing

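The number of probe sets called among all tested was 77 and depended on the setting: 0 after quantile normalization, 9406 after centring, 0 with the replicate block, 391 with array weights, 7 with unmoderated variance, and 0 to 546 when single arrays were left out. The count of called cyclin and CDK genes was 0 under every alternative run except centring, where it was 8 of 9, and that of the other cell cycle genes was 0 except after centring (8 of 10) and when single arrays were left out (0 to 1). After quantile normalization the differences changed sign for CDKB1 (-0.0060), CDKC (-0.0037), CycB2 (-0.00074) and CYCD3 (-0.0049). After centring they did so for CDKB1 (-0.0054), CDKC (-0.0055), CycA2 (-0.0021), CycB2 (-0.0055) and CYCD3 (-0.0048), since centring takes about the same amount from every probe set. CycA3 ran from -2.5e-05 to 4.7e-06 when single arrays were left out, CDKB2 from 0.029 to 0.037 and CycA1 from 0.015 to 0.020. CycA1, CycA2 and CycB2 had no value without the dimmest probe sets. Same-numbered arrays did not deviate together (correlations of -0.092, -0.023 and -0.106), and with the replicate block the adjusted p was 0.159 for CDKB2 and 0.247 for CycA1. No detection call came with the values, so signal over background is unknown. Where not stated, the cause was not tested.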
